A study of Brugia malayi with 68 samples.

Results

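Adult female Brugia malayi recovered from albendazole-treated gerbils were compared with females from untreated gerbils, with the worms taken 1 day and 7 days after treatment considered together. Brugia malayi is a filarial nematode that causes lymphatic filariasis. The comparison holds 12 of the 68 RNA-seq libraries of the study, 6 from albendazole-treated and 6 from untreated hosts. Members were chosen by their labels: every female library of these treatments entered, and each albendazole library was paired with the untreated library of the same day and replicate number, which gave 6 pairs, 3 on each day. The question was how the drug alters gene expression of the female worm inside its host, averaged over both days.

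Mongolian gerbils (Meriones unguiculatus) had been infected with larvae in the peritoneal cavity and kept for 4 months, until the infection was patent. They then received albendazole at 1 mg/kg or no drug. The control labels mention DMSO, a solvent, although per the protocol these gerbils received nothing; they are called untreated here. All worms therefore came from the gerbil peritoneal cavity, not from lymphatic vessels. How many worms or animals made up a library is not given in the labels, so p-values measure only the spread between these libraries. The other female libraries, 6 after diethylcarbamazine at 6 mg/kg and 6 after ivermectin at 0.2 mg/kg, are used here only where albendazole is set against them.

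Albendazole is a benzimidazole that binds nematode beta-tubulin and blocks its assembly into microtubules, which carry transport within cells and separate chromosomes at division. It is given together with diethylcarbamazine or ivermectin in programmes against lymphatic filariasis. An adult female filarial worm carries dividing germ cells, embryos and fully formed larvae in her uterus and releases these larvae, the microfilariae, live. RNA of a whole female thus includes RNA of her offspring. The deposited table lists genes by identifier only, and 0 of its 11590 identifiers occurred in the available table of 11688 reference genes. Tubulins and other drug-related genes could therefore not be looked up, and genes are described by identifier and by the stage that expresses them most.

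The 12 libraries held between 6455701 and 37822431 counts, with 10782 to 11229 genes detected in each. Albendazole libraries were deeper than their untreated partners in 5 of 6 pairs, with a mean log2 difference of 0.618 ± 0.974 (SD, n = 6 pairs, two-sided exact permutation p = 0.0625, where 0.03125 is the smallest p possible). The greatest gap was in the pair of day 7 replicate 1, where the albendazole library was 5.86 times as deep.

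Among the 12, 2 untreated libraries stood apart from the rest. In untreated day 1 replicate 3 the 100 most abundant genes took 20.7% of counts, against 12.1% to 14.2% in the other 11, and its scaling factor was 0.641. Its first principal component score, on an axis holding 45.1% of the variance, was 77.4. In untreated day 7 replicate 2, genes typical of male worms summed to 596 CPM (the usual unit of read counts scaled to library size), against 41.9 to 51.3 in the other 11. The albendazole partners did not stand apart from the rest of the 12 in these measures. In the round of day 1 replicate 3, however, the diethylcarbamazine and ivermectin libraries also held 20.8% and 19.7%, against 12.3% with albendazole. The main counts, and the genes with an extreme value in either untreated library, are also given without its pair.

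Pooled over both days, no gene passed the test for a mean effect of albendazole in females. Of 10029 genes tested, 0 had an adjusted p under 0.05 (0% called; edgeR quasi-likelihood test with the 6 pairs as blocks, Benjamini-Hochberg adjustment, smallest adjusted p = 0.968). DESeq2 and limma voom also called 0. At an unadjusted p under 0.05 there were 109 genes in edgeR (1.09% of those tested, 54 higher and 55 lower with albendazole), 111 in DESeq2 and 119 in limma voom. Without the pair of day 1 replicate 3, edgeR again called 0 of 10161 genes, with 348 genes under an unadjusted 0.05 (3.42%, 133 higher and 215 lower). DESeq2 also called 0 without that pair, with 205 genes under an unadjusted 0.05 and a smallest adjusted p of 0.0621. The common biological coefficient of variation, edgeR's measure of relative spread between replicates, was 0.194 with 6 pairs and 0.0932 without that pair.

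The measured mean changes were small. The median absolute log2 fold change was 0.09, and 9 genes differed by more than 2-fold, 0 of them higher and 9 lower with albendazole. All 9 lay in the lowest abundance quartile, and 7 of the 9 were typical of male worms, as were 771 of the 10029 genes tested (7.69%). Those 7 are described with the male-typical genes below, because untreated day 7 replicate 2 held the highest level of such genes. Without that pair, 8 genes lay more than 2-fold lower, of which 2 were male-typical, and 5 lay more than 2-fold higher. Without the pair of day 1 replicate 3, 26 genes lay beyond 2-fold: 21 lower, of which 19 were male-typical (817 of the 10161 tested, 8.04%), and 5 higher, of which 0 were.

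**Figure D1:**
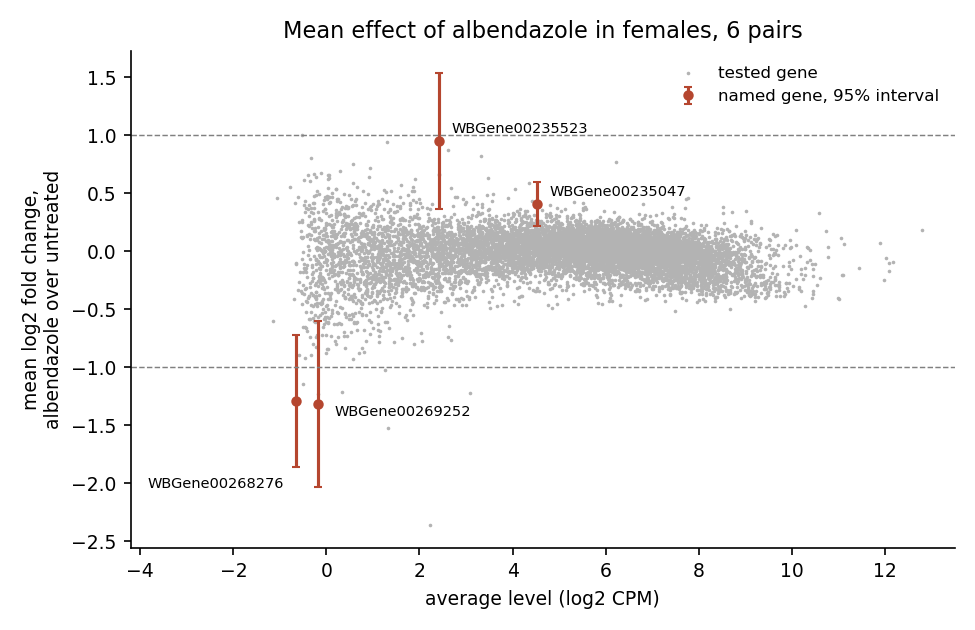
Mean log2 fold change of albendazole over untreated females for each of 10029 tested genes (vertical axis) against average abundance in log2 CPM (horizontal axis); red points are the 4 named genes with 95% intervals, and dashed lines mark 2-fold. Most genes lie close to 0, the spread widens towards low abundance, and the 9 genes beyond 2-fold are all lower.

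For most genes the intervals left no room for a 2-fold mean change. The 95% interval of the fold change, taken from the edgeR fit, lay entirely within 2-fold on both sides for 9383 genes (93.6%), and within 0.5 log2 units on both sides for 6546 (65.3%). The median standard error was 0.131 on the log2 scale. The share within 2-fold was 82.8% in the lowest abundance quartile, 98.8% and 98.9% in the middle quartiles and 93.8% in the highest. For genes with few counts the intervals can be too narrow, so the share in the lowest quartile may be too high. Without the pair of day 1 replicate 3 the highest quartile reached 100% of 2540 genes, and 8331 of 10161 genes (82.0%) had an interval within 0.5 log2 units. A further 1561 genes were too sparse to test, with a median of 23 counts summed over all 12 libraries, and 171 of these had 0 counts throughout. No gene had counts in all 6 libraries of one group and 0 counts in all 6 of the other (0 genes in either direction).

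The 100 most abundant genes spanned a narrow range, narrower once the pair of day 1 replicate 3 was set aside. Their mean log2 fold changes ran from -0.48 to 0.33 with a median of -0.16 in 6 pairs. Without day 1 replicate 3 they ran from -0.21 to 0.23 with a median of 0.02.

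Recurrence in all 6 pairs was rare. With albendazole 91 genes were higher in all 6 pairs (0.907% of those tested) and 76 were lower in all 6 (0.758%). With 6 pairs there are 64 patterns of sign, of which 1 is higher in all 6 and 1 lower in all 6. If every pattern were equally likely, both counts would be expected to be greater. In 3360 genes (33.5%) the pairs split evenly. The mean log2 fold changes of the 91 genes had a median of 0.22 and reached at most 0.95. Those of the 76 had a median of -0.20 and reached -2.36, with 4 genes beyond 2-fold. Most of these genes, 87 and 73, fell in none of the stage-typical sets described below. Those sets held only 100 (female), 29 (male) and 69 (microfilaria) of the 10029 tested genes. The full lists of stage-typical genes, not cut at 100, gave other shares. Female-typical genes were 9 of the 91 (9.89%) and 1 of the 76 (1.32%), against 4.47% of all tested. Male-typical genes were 6 of the 91 (6.59%) and 13 of the 76 (17.1%), against 7.69%. These shares were not tested. No gene had all 6 albendazole libraries above, or all 6 below, all 6 untreated libraries (0 of 10029 each, 0%).

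The following 4 genes had the smallest p among those with one direction in all 6 pairs, 2 higher and 2 lower, and none passed the adjusted threshold (edgeR adjusted p = 0.968 for each). Levels are in CPM after TMM scaling. WBGene00235047 stood between 14.3 and 23.4 CPM in untreated females, with a median of 20.1, and between 19.8 and 29.2 with a median of 27.2 after albendazole. Each albendazole library exceeded its partner, while the groups as a whole overlapped. The mean log2 fold change was 0.41 (SE 0.08, 95% interval 0.22 to 0.59), and 0.39 without day 1 replicate 3.

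WBGene00235523 was near the detection limit in most females. Untreated libraries ran from 0 to 18.6 CPM with a median of 0.452, and albendazole libraries from 0.505 to 34.9 with a median of 0.804. The high values, 18.6 and 34.9 CPM, were both in day 1 replicate 1. In the other 10 libraries the gene did not exceed 1.03 CPM, on 0 to 27 counts. In day 1 replicate 1 it was also high after the other drugs, at 27.0 CPM after diethylcarbamazine and 18.1 after ivermectin, so the level followed the replicate across all 4 treatments. Its mean log2 fold change was 0.95 (SE 0.26, against 0.35 in DESeq2), and 0.86 without day 1 replicate 3.

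The pair of lower genes was also represented by few reads. WBGene00268276 ran from 0.430 to 0.979 CPM in untreated females, with a median of 0.818, and from 0.205 to 0.542 with a median of 0.275 after albendazole. Its raw counts were only 2 to 16 per library, and the groups overlapped. The mean log2 fold change was -1.29 (SE 0.25, against 0.46 in DESeq2), and -1.33 without day 1 replicate 3. WBGene00269252 ran from 0.339 to 4.44 CPM untreated, with a median of 0.659, and from 0.103 to 0.865 with a median of 0.431 after albendazole, on 1 to 31 counts. Its highest value was in untreated day 1 replicate 3. The mean log2 fold change was -1.31 (SE 0.31, against 0.43 in DESeq2), and without that pair the gene did not pass the filter on low counts.

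**Figure D2:**
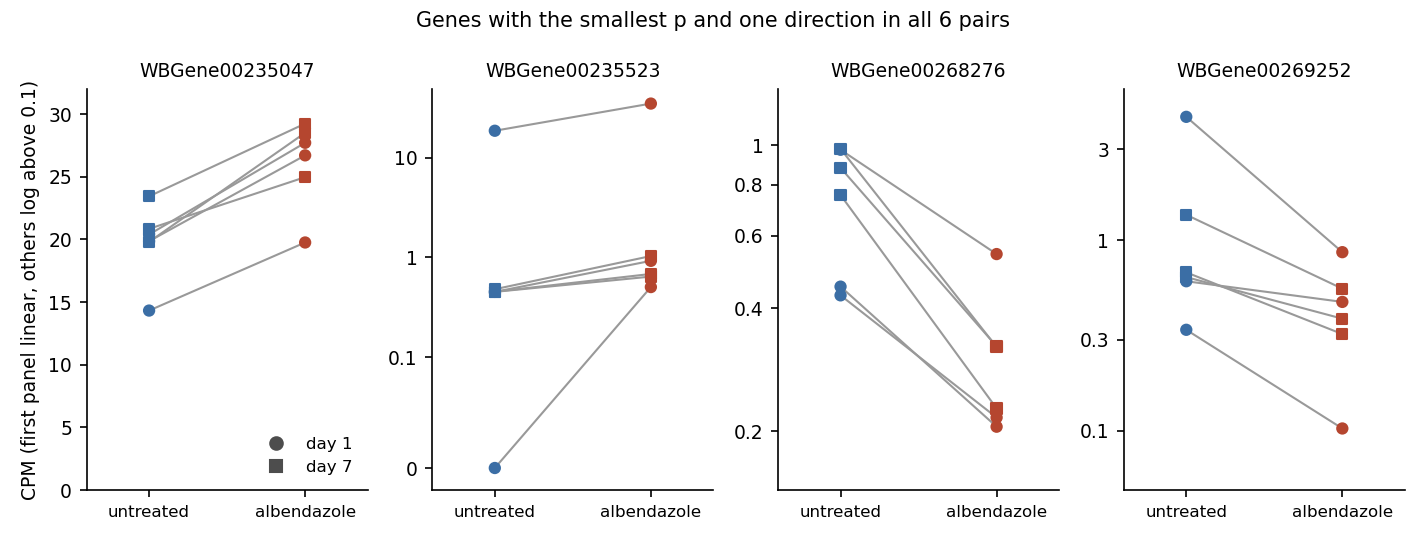
Level in CPM of the 4 named genes in the 12 female libraries; circles are day 1, squares are day 7, and lines join the untreated and albendazole library of a pair. Every albendazole value exceeds its partner for WBGene00235047 and WBGene00235523 and lies below it for WBGene00268276 and WBGene00269252, while the groups overlap in all 4 panels and day 1 replicate 1 of WBGene00235523 (18.6 and 34.9 CPM) lies far above the rest.

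None of these 4 genes passed the adjusted threshold with albendazole in the other stages, or with another drug in females. In males the log2 fold change with albendazole was 0.06 for WBGene00235047, -0.51 for WBGene00235523, -0.04 for WBGene00268276 and -0.70 for WBGene00269252. In microfilariae it was 0.13 for WBGene00235047, -0.19 for WBGene00235523 and 0.42 for WBGene00268276, and WBGene00269252 has no value there. In females, in a fit of all 24 female libraries, WBGene00268276 was lower by a similar amount after every drug, at -1.25 with albendazole, -1.26 with diethylcarbamazine and -1.18 with ivermectin. These values share their untreated libraries. WBGene00235523 measured 0.91 with albendazole, 0.72 with diethylcarbamazine and 0.52 with ivermectin. WBGene00269252 measured -1.19, -0.24 and -0.48 in that order. In day 1 replicate 3, on the scale of that fit, it held 4.30 CPM untreated and 0.83 with albendazole. After diethylcarbamazine and ivermectin it held 4.51 and 3.10 there. Without the 4 libraries of that round the log2 fold changes were -0.83, -0.46 and -0.49. WBGene00235047 measured 0.41 with albendazole, 0.07 with diethylcarbamazine and 0.18 with ivermectin. Albendazole minus diethylcarbamazine was 0.34 for this gene (SE 0.12, edgeR adjusted p = 0.224).

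The log2 ratios of different pairs were at most weakly correlated across genes. The standard deviation of the log2 ratios of a pair was 0.273, 0.400 and 0.874 for replicates 1, 2 and 3 of day 1, and 0.281, 0.387 and 0.251 for those of day 7. In the widest pair, day 1 replicate 3, 2076 genes (20.7%) differed by more than 2-fold, 731 higher and 1345 lower with albendazole, against 89 to 285 in the other pairs. The 15 correlations between the log2 ratios of different pairs, over the 10029 genes, ran from -0.298 to 0.203 with a median of -0.053, and 5 of them were above 0. No pair shares a library with another. The mean ratios of day 1 and of day 7 correlated at -0.0016, and at -0.0074 without day 1 replicate 3. These correlations are over genes, which are not independent replicates.

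**Figure D3:**
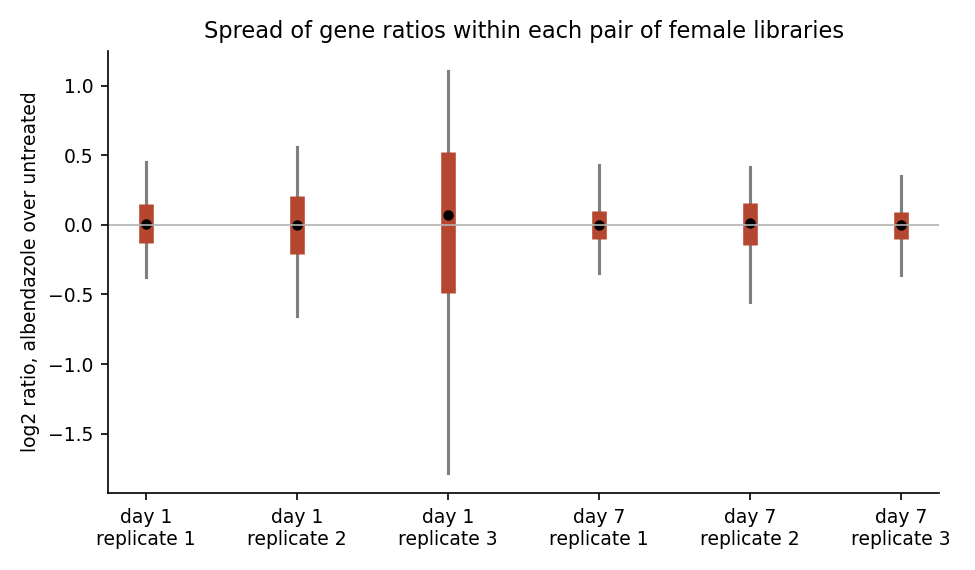
Distribution of the log2 ratio of albendazole over untreated across 10029 genes in each of the 6 pairs; points are medians, thick bars span the lower to the upper quartile and thin lines the 5th to the 95th percentile. Medians lie near 0 in every pair, and the pair of day 1 replicate 3, with an SD of 0.874, is the widest.

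Genes typical of each stage were then followed in the female libraries. Sets of 100 genes for females, males and microfilariae were chosen in libraries that do not enter the comparison: the 12 females given diethylcarbamazine or ivermectin, the 6 untreated males and the 5 untreated microfilaria libraries. Summed over the 100 genes, the female-typical set stood at 21747 to 29691 CPM in the 12 libraries compared here. That was 85.0% to 116% of its level in the 12 females used to choose it, so the libraries carried the female pattern their labels give. The set stood at 203 to 269 CPM in males and at 112 to 154 in microfilariae, low there by the choice of the set. By the same choice, the male-typical and microfilaria-typical sets are low in females given diethylcarbamazine or ivermectin. In bulk samples of this kind, fewer cells of a type and less RNA per cell cannot be told apart.

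Female-typical genes differed between the groups by less than the spread of the libraries. All 100 were tested and 0 were called, with 64 higher and 36 lower and a median log2 fold change of 0.06, against -0.0017 over all tested genes. The level of the set, as mean log2 CPM, was 6.80 ± 0.05 after albendazole and 6.73 ± 0.10 in untreated females (SD, n = 6 each). Untreated levels spanned 6.61 to 6.90 and contained the whole range after albendazole, 6.75 to 6.90. Within pairs the difference was 0.068 ± 0.124 (SD, n = 6 pairs), with albendazole higher in 4 of 6.

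Microfilaria-typical genes, of interest because a female carries larvae in her uterus, also overlapped between the groups. Of the 100, 69 were abundant enough to test and 0 were called, with 37 higher and 32 lower and a median log2 fold change of 0.02. The set stood at 1.91 ± 0.12 log2 CPM after albendazole and 1.88 ± 0.22 in untreated females. Pairs differed by 0.031 ± 0.265, with albendazole higher in 3 of 6. Summed over all 100 genes, the level in the 12 females was 455 to 712 CPM, or 1.68% to 2.63% of that in microfilariae. The genes were chosen to be low in females of the other drugs, so this low level was largely set by the choice. Genes that larvae in the uterus express strongly would tend to be left out, so the set can miss RNA of these larvae.

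Male-typical genes were close to absent in 11 of the 12 libraries. Their summed level was 41.9 to 51.3 CPM there, 0.112% to 0.136% of the level in untreated males, and 5 to 38 of the 100 genes were at 0. In untreated day 7 replicate 2 it was 596 CPM, 1.59% of the male level, with 0 genes at 0. One further female library outside the comparison, day 1 replicate 1 of diethylcarbamazine, also stood high, at 434 CPM. In the pair of day 7 replicate 2, 212 genes (2.11%) were more than 2-fold lower with albendazole, and 175 of these (82.5%) were male-typical, against 7.69% of all tested genes.

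The male-typical result rested on that library. Of the 100 male-typical genes 29 passed the filter on low counts, and each of these 29 had a lower mean with albendazole, at a median log2 fold change of -0.61, while 0 were called. The filter judged abundance in these 12 libraries, that one included, so the count and median of the genes that passed do not stand for all 100. The set level was 0.24 ± 0.09 log2 CPM after albendazole and 0.66 ± 1.2 in untreated females, where 5 libraries lay between -0.10 and 0.31 and day 7 replicate 2 at 3.10. Without that pair the median of the set was 0.004. The part of male RNA in it was not tested.

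**Figure D4:**
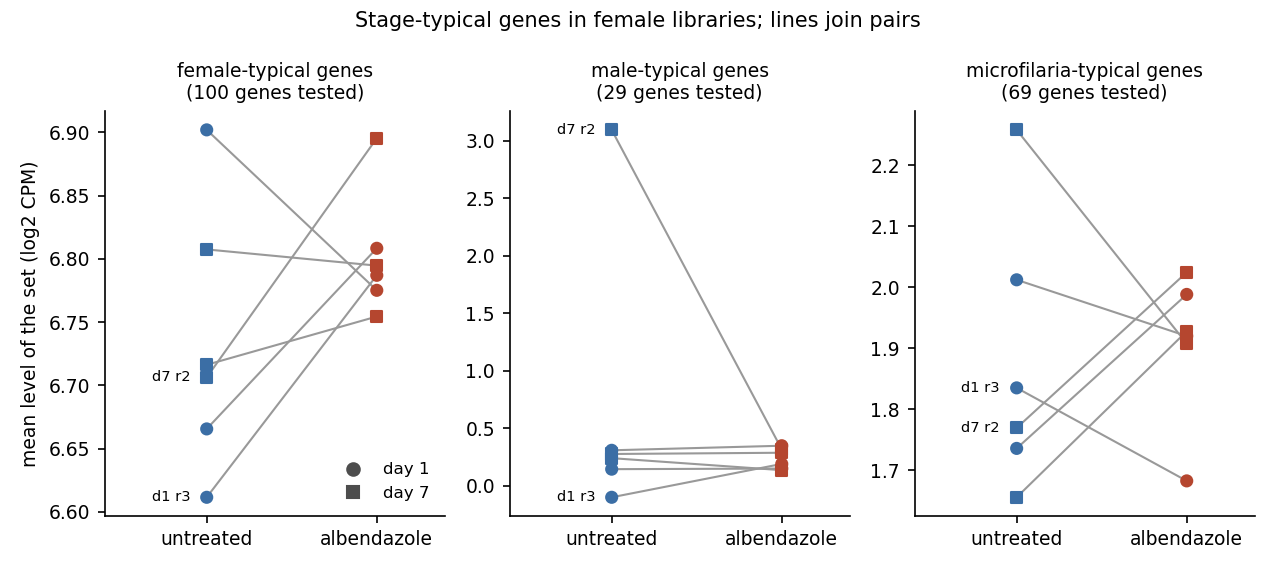
Mean level in log2 CPM of the tested genes of each stage-typical set in the 12 female libraries; circles are day 1, squares are day 7, lines join pairs, and the labels d1 r3 and d7 r2 mark the untreated libraries that stood apart. Female-typical and microfilaria-typical levels overlap between the groups, and untreated day 7 replicate 2 lies at 3.10 in the male-typical panel, above every other library.

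Taking the days apart did not bring out a called gene either. At day 1, 0 of 10029 genes were called by edgeR (0%), with 261 under an unadjusted 0.05 (2.60%), and DESeq2 called 0 with 285. At day 7, edgeR called 0 with 61 genes under an unadjusted 0.05 (0.608%), and DESeq2 called 0 with 38. The difference of the effect between the days, tested directly, gave 0 called genes and 89 under an unadjusted 0.05 (0.887%), and DESeq2 gave 0 and 69. With 3 pairs per day the intervals were wider: they lay within 2-fold for 7846 genes (78.2%) at day 1 and 8818 (87.9%) at day 7.

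At day 1 the higher gene with the smallest p was WBGene00230262. Its untreated libraries held 2.44, 2.71 and 2.58 CPM and its albendazole libraries 5.15, 8.94 and 6.35, with no overlap. The log2 fold change was 1.36 (SE 0.29, edgeR adjusted p = 0.791). At day 7 both groups were higher and overlapped: the untreated libraries held 8.01, 4.22 and 6.24 CPM and the albendazole libraries 6.93, 8.63 and 9.42. The untreated day 1 libraries were thus the low ones.

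The lower gene at day 1 was WBGene00268727, at 2.01, 1.58 and 7.02 CPM untreated and 0.881, 0.719 and 1.66 after albendazole. The highest value again belonged to untreated day 1 replicate 3, and the groups overlapped. Its log2 fold change was -1.56 at day 1 (SE 0.30, edgeR adjusted p = 0.791), -1.18 there without replicate 3 (edgeR adjusted p = 0.892), and 0.05 at day 7. It was also the gene with the smallest p for a higher effect at day 7 than at day 1, with a difference of 1.61 (SE 0.41, edgeR adjusted p = 0.987), and 1.23 without day 1 replicate 3. In the opposite direction WBGene00223045 had a difference of -2.37 (SE 0.57, edgeR adjusted p = 0.987), on 1 to 47 counts per library.

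At day 7 the higher gene was WBGene00220939, at 14.7, 13.9 and 15.6 CPM untreated and 32.8, 17.3 and 31.4 after albendazole. All 3 albendazole libraries lay above all untreated ones, and replicates 1 and 3 far more so than replicate 2. The log2 fold change was 0.83 (SE 0.22, edgeR adjusted p = 1.00), and 1.08 without replicate 2. At day 1 it was 0.22. The lower gene was WBGene00269353, at 1.81, 2.64 and 1.12 CPM untreated and 0.708, 0.697 and 0.387 after albendazole, again without overlap. Its log2 fold change was -1.61 (SE 0.31, edgeR adjusted p = 1.00), and -1.41 without replicate 2, whose untreated library was the highest. The day 7 values rest on 6 to 35 counts per library, and at day 1 the log2 fold change was -0.10.

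Direct contrasts of albendazole with the other drugs came from the fit of all 24 female libraries, in which the untreated ones help to set the blocks and the spread but are not one of the sides compared. Against diethylcarbamazine, edgeR called 0 of 10264 genes (0%), with 2009 under an unadjusted 0.05 (19.6%). DESeq2 called 44 (0.429%), 13 higher and 31 lower with albendazole. Against ivermectin, edgeR called 0 with 759 under an unadjusted 0.05 (7.39%), and DESeq2 called 0 with 821. The replicate 3 libraries of day 1 stood apart after diethylcarbamazine and ivermectin as well as in untreated females, with 20.8%, 19.7% and 20.7% of counts in their 100 most abundant genes, against 12.3% in the albendazole library of that round. The part of that imbalance in the contrasts was not tested.

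Leaving out the 4 libraries of day 1 replicate 3, edgeR called 11 of 10411 genes between albendazole and diethylcarbamazine (0.106%), 8 higher and 3 lower with albendazole, with 1577 under an unadjusted 0.05. Of the 11, 4 were typical of females and 2 of microfilariae, as were 448 (4.30%) and 210 (2.02%) of the genes tested. Their absolute log2 differences ran from 0.36 to 1.23. Against untreated females the median absolute log2 fold change of these 11 genes was 0.09 with albendazole and 0.48 with diethylcarbamazine. Of the 11, 3 were among the 44 genes that DESeq2 called in all 24 libraries. DESeq2 without the 4 libraries called 163 genes, 69 higher and 94 lower, of which 37 were among those 44. Against ivermectin, edgeR without them called 0 genes with 862 under an unadjusted 0.05, and DESeq2 called 7, 2 higher and 5 lower.

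The genes with the smallest p in these contrasts differed by less than 2-fold. WBGene00225117 lay at 14.5 to 18.7 CPM after albendazole (median 15.5), 8.48 to 13.6 after diethylcarbamazine (median 11.3) and 13.0 to 18.5 untreated (median 14.3). The albendazole libraries overlapped with the untreated ones and all lay above those of diethylcarbamazine. Albendazole minus diethylcarbamazine was 0.55 (SE 0.11, edgeR adjusted p = 0.222). Without day 1 replicate 3 it was 0.59 (edgeR adjusted p = 0.0468). The gene is among the 44 that DESeq2 called in all 24 libraries (adjusted p = 0.00689).

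WBGene00226383 showed the opposite order. It lay at 48.6 to 65.1 CPM after albendazole (median 59.3), 66.6 to 191 after diethylcarbamazine (median 84.3) and 45.7 to 119 untreated (median 56.3). The albendazole libraries of this gene fell within the untreated range, and all lay below those of diethylcarbamazine. The difference was -0.72 (SE 0.13, edgeR adjusted p = 0.222). Without day 1 replicate 3 it was -0.55 (edgeR adjusted p = 0.0468). This gene too is among the 44 called by DESeq2 (adjusted p = 0.00356).

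Against ivermectin the leading higher gene was WBGene00230054, at 23.9 to 34.8 CPM after albendazole (median 29.7) and 19.4 to 27.5 after ivermectin (median 22.5), which overlapped. The difference was 0.36 (SE 0.09, edgeR adjusted p = 0.639). Untreated females stood at 22.8 to 37.6 CPM (median 34.8). Against them the log2 fold change in all 24 libraries was -0.12 with albendazole and -0.48 with ivermectin (edgeR adjusted p = 0.228 for ivermectin). Without day 1 replicate 3 these were -0.15 and -0.51 (edgeR adjusted p = 0.988 and 0.0414). The leading lower gene was WBGene00222072, at 93.0 to 109 CPM after albendazole (median 104) and 124 to 163 after ivermectin (median 132), without overlap. The difference was -0.40 (SE 0.10, edgeR adjusted p = 0.639; DESeq2 adjusted p = 0.313). Without day 1 replicate 3 it was -0.37 with edgeR (adjusted p = 0.129) and -0.38 with DESeq2 (adjusted p = 0.00041), which called the gene there. Untreated females stood at 90.6 to 108.1 CPM in 5 libraries and at 149.7 in day 1 replicate 3, the only one within the ivermectin range. Ivermectin over untreated was 0.38 in all 24 libraries, and 0.42 without day 1 replicate 3 (edgeR adjusted p = 0.0229).

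**Figure D5:**
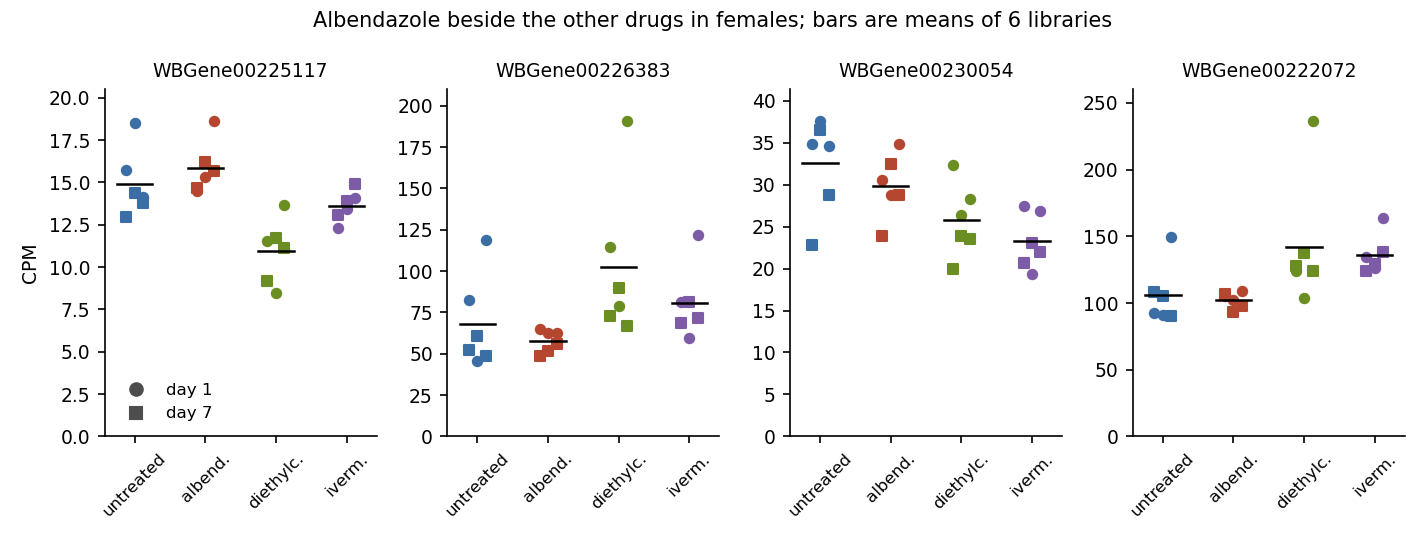
Level in CPM of the 4 genes with the smallest p for albendazole against diethylcarbamazine (WBGene00225117, WBGene00226383) and against ivermectin (WBGene00230054, WBGene00222072) in all 24 female libraries; circles are day 1, squares day 7, and horizontal bars are means of 6 libraries. The albendazole libraries overlap with the untreated ones in each panel, and for WBGene00225117, at 14.5 to 18.7 CPM, they lie above all diethylcarbamazine libraries.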

How the data were processed

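Sequencing libraries were made from total RNA with a TruSeq kit that keeps strand, per the labels' protocols. The authors deposited a table of whole-number read counts of each gene in each library, without normalisation. TopHat2 2.0.14 and HTSeq 0.6.1p1 are named in the submitters' processing notes; genome build and counting options are not given in the sources used here, so reads of near-identical gene copies may be split between them.

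Counts were analysed with edgeR 4.0.16 (quasi-likelihood test, TMM scaling, filterByExpr at 10 counts and 15 in total) in R 4.3.3, with limma 3.58.1 and DESeq2 1.42.0 as alternatives, after a check on simulated data; figures used Python 3.11.15 and matplotlib 3.10.9. The model held 6 blocks of day and replicate number plus albendazole. The design text says that all drugs were given within each replicate, and deviations of paired libraries from their group means correlated at 0.076 (day 1 replicate 3) to 0.618. Replicates of a group were distinct libraries (chi-square per degree of freedom of 7.61 or more). Tests were two-sided with Benjamini-Hochberg adjustment over all genes tested and a threshold of 0.05. The standard error is the fold change over the root of the F statistic, and 95% intervals use the fit's degrees of freedom. For genes with few counts such an interval can be narrower than the p-value implies. At day 1 that of WBGene00268276 ran from -1.77 to -0.07, while its unadjusted edgeR p was 0.063.

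A stage-typical gene was at least 2 log2 units above each other stage on average, with its lowest library above the highest of the other stages, and the 100 with the greatest gap formed each set (448, 1156 and 256 genes were eligible for females, males and microfilariae). The level of a set is its mean log2 CPM (prior count 2), without a test. Named genes have the smallest p among genes with one sign in all pairs, 2 per direction for both days together and 1 per direction for each day; 1 per direction, by smallest p, was taken for each further contrast. Lists by product name could not be looked up, since 0 identifiers matched. The members and lists were chosen with earlier results of these data known.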

Additional observations from a re-analysis of the deposited data

Results flagged for a closer look

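In 43 groups of 6 libraries or pairs, 15 single values lay far outside the others of their group by Dixon's criterion. With independent, normally distributed values it flags about 1 of 20 groups. Many groups here are CPM values of genes picked by p in the same libraries, so that rate does not apply to them. Untreated day 1 replicate 3 accounts for 7 of them: its scaling factor (0.641), the share of its 100 most abundant genes (20.7%), its first principal component score (77.4), the spread of its pair (SD 0.874), and its CPM of WBGene00269252 (4.44), WBGene00268727 (7.02) and WBGene00222072 (154.7). Day 1 replicate 1 accounts for 5: WBGene00235523 at 34.9 CPM after albendazole and 18.6 untreated, and, after albendazole, WBGene00268276 at 0.542, WBGene00269353 at 3.59 and WBGene00223045 at 3.18 CPM. Untreated day 7 replicate 2 stood at 3.10 log2 CPM for male-typical genes. Albendazole day 1 replicate 3 was low for microfilaria-typical genes, at 1.68 log2 CPM. Albendazole day 7 replicate 1 was the deepest library, with 37822431 counts.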

How the results depend on the processing

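Of 387 alternative values computed, 352 were classed as the same, 23 as stronger and 12 as weaker. A tested gene was the same if it kept its sign and its side of the threshold. Counts were the same if equal or within 1.5 times the main count. Values without a test were the same if within the spread between pairs. For male-typical genes that spread includes the pair of day 7 replicate 2. Their median without that pair, 0.004 against -0.61, was therefore classed as the same. No tested value changed sign; the set medians, which have no test, kept their sign in 22 of 22 alternatives for females, 21 for males (not without day 7 replicate 2) and 15 for microfilariae. The mean effect had 0 called genes under every alternative except DESeq2 without the pairs of day 1 replicate 3 and day 7 replicate 2 (2 genes); without the replicate block it was 0, as it was for each day, for the difference between days and for both drug contrasts. The 109 genes at an unadjusted p under 0.05 became 53 without the block, 65 with a coarser block of replicate number plus day, and 266 with all 24 female libraries. Leaving out each pair in turn gave 66 (without day 1 replicate 1) to 348 (without day 1 replicate 3). Without the block, leaving out each albendazole library in turn gave 68, 55 and 56 (day 1) and 51, 42 and 42 (day 7); leaving out an untreated library gave 325 without day 1 replicate 2, 47 and 67 without day 7 replicates 2 and 3, and within 1.5 times 109 for the other 3.

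Alternatives chosen after seeing the data gave, without day 1 replicate 3, 466 in 24 libraries, 205 with DESeq2 and 375 with limma voom, and without both pairs 180 with edgeR and 72 with DESeq2. Albendazole against diethylcarbamazine went from 0 called genes to 11 without day 1 replicate 3, 44 with DESeq2 and 163 with both; against ivermectin it reached 7 with both. Intervals within 2-fold numbered 8910 to 9721. Set medians ran from 0.03 to 0.11 (female), -1.52 to 0.004 (male) and -0.03 to 0.12 (microfilaria). Depth limits genes of low abundance: the 2 lower genes named for the mean effect rest on 1 to 31 counts per library. Outside day 1 replicate 1, WBGene00235523 rests on 0 to 27 counts per library. The causes of these shifts were not tested.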

Other observations

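With the pairs of day 1 replicate 3 and day 7 replicate 2 both left out, DESeq2 called 2 genes, both higher with albendazole; they are named here after their values were seen. In the 4 pairs left, the log2 difference of WBGene00228202 was 0.40 (SE 0.08, DESeq2 adjusted p = 0.0193), where edgeR gave an adjusted p of 0.249. Over all 6 pairs it was higher in 5, at 0.14 (SE 0.18, edgeR adjusted p = 0.968). Its level differed more between rounds than within pairs: on day 1, replicates 1, 2 and 3 held 41.0, 151.8 and 199.4 CPM untreated and 56.5, 201.0 and 102.1 after albendazole.

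In the same 4 pairs the log2 difference of WBGene00268395 was 1.27 (SE 0.27, DESeq2 adjusted p = 0.0195; edgeR adjusted p = 0.249). Over all 6 pairs it was higher in 5, at 0.67 (SE 0.69, edgeR adjusted p = 0.968). On day 1 the untreated libraries held 1.77, 4.40 and 4.44 CPM and the albendazole libraries 6.64, 10.68 and 11.75. On day 7 they held 4.23, 5.35 and 2.08 untreated and 6.27, 0.05 and 5.23 after albendazole, where replicate 2 had a single count.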
